A study of Mus musculus with 15 samples.

Results

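H3K9me3 was compared with all histone H3 in 1000 embryonic stem cells, over 2 kb bins sampled from the mouse genome. The bins were chosen by 1 condition, a value above 0 in at least 1 of 5 libraries, which 93575 of the 98085 deposited bins met (4510 were at 0 in all 5). The 5 libraries are 3 of H3K9me3 (a, b and c) and 2 of panH3 (a and b), out of 15 samples in the series, which profiled several histone marks by native ChIP-seq from falling numbers of cells and also measured RNA. Both groups used sorted wildtype male cells of TT2, a mouse embryonic stem cell line of C57BL/6 x CBA background, with no treatment. They differ in the antibody, which was raised against trimethylated lysine 9 of histone H3 in the first group and against histone H3 whatever its modification in the second. The second group therefore measures where nucleosomes were recovered at all. Whether the libraries of a group were made from different cultures is not stated in the labels. The p-values therefore cover the spread among these libraries alone, which may be technical, and TT2 is a single line.

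H3K9me3 is the mark of constitutive heterochromatin. It is written by the SUV39H enzymes and by SETDB1, which KRAB zinc finger proteins recruit through TRIM28, and it is read by the HP1 proteins, which compact the marked chromatin. In embryonic stem cells the mark is known for silencing transposable elements, for coating satellite repeats near centromeres and for holding clustered tissue-specific gene families silent, while promoters and bodies of active genes usually lack it. A native ChIP cuts chromatin with micrococcal nuclease and uses no crosslinking, so the signal comes from nucleosomes.

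The identity of the cells was checked in the RNA of a 1000-cell library of the same line. Of 14 markers of embryonic stem cells 13 were in the gene table, and all 13 were at 1 RPKM (reads per kilobase, scaled to library depth) or more, from 8.45 to 222 RPKM. Of 12 fibroblast markers, which feeder cells would bring, 1 reached 1 RPKM (Thy1, 1.79 RPKM). Their summed level was 2.70 RPKM, and the collagen Col3a1 and the matrix genes Dcn, Lum and Postn were at 0.

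The RPKM steps gave depths of 17.5 to 34.9 M reads for the H3K9me3 libraries and of 42.0 and 42.2 M for panH3, so a typical bin rests on 13 to 26 reads against 36. The panH3 libraries differed from each other by little more than counting noise: the spread of their difference over bins was 1.02 times that expected of counts, against 1.08 to 1.30 among the H3K9me3 libraries and 5.16 to 7.51 between the marks. They are listed as separate samples and were kept as separate libraries. Their depths and values differ, but repeated sequencing of 1 library would also give that, so their independence could not be established. Bins were tested with limma on log2(RPKM + 0.1), a scale that understates changes of low bins. At an adjusted p under 0.05, H3K9me3 was higher than panH3 in 14224 bins (15.2%) and lower in 23158 bins (24.7%). The median difference over bins was -0.10 on the log2 scale, and setting each library's median to 0 moved it to 0.08 and turned the split to 20312 higher and 18564 lower bins. With the mean of the panH3 libraries taken as 1 library, 9427 bins were higher and 15095 lower. Which direction has more bins therefore depends on the scaling, and the differences below are read against each other. A higher density can come from more cells carrying the mark at a place or from more marked nucleosomes per cell, which these data cannot tell apart.

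The ends of the range of start sites are shown by 4 promoters. Each is the 250 bases before the start of a gene whose start-site bin was called, with every CpG (CG, a palindrome, so the same on both strands) in capitals. Among genes with 1 promoter in the table used, the first 2 have the most CpG where the start-site bin was lower in H3K9me3, and the other 2 are the first in alphabetical order with no CpG where it was higher. Sequences are from RefSeq on build GRCm38.p6, + strand, at chr5:118560469-118560718 (Med13l), chr12:113014258-113014507 (Pacs2), chr7:31302519-31302768 (Abpe) and chr7:34095181-34095430 (Gm12776).
Med13l: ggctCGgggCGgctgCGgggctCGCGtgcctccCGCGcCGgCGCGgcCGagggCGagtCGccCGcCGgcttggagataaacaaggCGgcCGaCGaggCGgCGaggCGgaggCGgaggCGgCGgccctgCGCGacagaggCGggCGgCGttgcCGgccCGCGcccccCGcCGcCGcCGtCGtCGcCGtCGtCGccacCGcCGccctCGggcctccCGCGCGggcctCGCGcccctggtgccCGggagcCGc
Pacs2: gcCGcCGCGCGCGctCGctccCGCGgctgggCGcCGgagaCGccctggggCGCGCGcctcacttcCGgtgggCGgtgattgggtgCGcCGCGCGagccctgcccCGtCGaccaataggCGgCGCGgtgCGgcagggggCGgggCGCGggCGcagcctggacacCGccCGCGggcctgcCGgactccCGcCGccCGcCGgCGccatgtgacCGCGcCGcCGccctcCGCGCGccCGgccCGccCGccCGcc
Abpe: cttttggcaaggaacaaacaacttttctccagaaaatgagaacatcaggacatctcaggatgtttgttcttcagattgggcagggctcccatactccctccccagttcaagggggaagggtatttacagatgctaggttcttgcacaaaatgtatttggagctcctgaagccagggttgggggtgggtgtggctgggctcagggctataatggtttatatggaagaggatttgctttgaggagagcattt
Gm12776: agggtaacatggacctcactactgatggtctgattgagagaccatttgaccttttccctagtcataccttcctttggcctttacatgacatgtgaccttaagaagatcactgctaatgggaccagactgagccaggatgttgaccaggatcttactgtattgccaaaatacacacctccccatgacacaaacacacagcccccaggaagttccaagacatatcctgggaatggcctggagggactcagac
Med13l, which encodes a subunit of the Mediator kinase module, has 51 CpG in these bases, and 0.067% of 32851 promoters in the table have at least as many. Its start-site bin (mm9, chr5:119010001-119012000) held 0.11, 0.04 and 0.02 RPKM in H3K9me3 a, b and c and 0.17 and 0.14 RPKM in panH3, a log2 difference of -0.74 (limma adjusted p = 0.0319) whose call was lost when libraries were centred on their medians. Pacs2, a sorting protein of the secretory pathway, has 50 CpG, and 0.0944% of promoters have at least as many. The Pacs2 bin (mm9, chr12:114252001-114254000) held 0.09, 0.06 and 0 RPKM against 0.31 and 0.28 RPKM. All H3K9me3 values of both bins lay below both panH3 values. The promoters of Abpe, which encodes an androgen-binding protein of saliva, and of Gm12776 hold no CpG, as do 7.87% of promoters, while 92.1% hold at least 1. The Abpe bin (mm9, chr7:32086001-32088000) held 0.71, 0.73 and 0.79 RPKM against 0.48 and 0.40 RPKM. The Gm12776 bin (mm9, chr7:34880001-34882000) held 1.82, 1.5 and 1.77 RPKM against 0.45 and 0.31 RPKM, a log2 difference of 1.92. No relation of CpG number to H3K9me3 was tested over all start-site bins, because the promoter table matched 1121 of 1491 such bins (75.2%), fewer than the 80% set for such a check.

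The first question was how far from genes the H3K9me3 signal rises above the nucleosome signal. In the 35764 bins that overlap a gene, the mean density was 0.321, 0.324 and 0.328 RPKM in H3K9me3 a, b and c and 0.467 and 0.468 RPKM in panH3. Averaged over all these bins H3K9me3 was below panH3, with no overlap between the groups, and 45.6% of these bins were called lower against 7.19% higher. In the 8775 bins within 10 kb of a gene the means were 0.425 and 0.463 RPKM, and 2827 bins were lower against 1272 higher. Between 10 and 50 kb the order turned, with 0.498 RPKM of H3K9me3 against 0.433 RPKM of panH3 over 13941 bins, of which 2905 were higher and 2180 lower. Beyond that point the surplus of H3K9me3 widened, to a mean log2 difference of 0.21 at 100 to 500 kb, and it was smaller, at 0.15, beyond 500 kb. Bins 100 to 200 kb away (8374 bins) held 0.512 RPKM against 0.398 RPKM, and 22.7% of them were higher against 4.61% lower.

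Gene deserts were not the places of highest H3K9me3. In the 8069 bins 500 kb or more from any gene H3K9me3 averaged 0.463 ± 0.023 RPKM (SD, n = 3), below the 0.512 RPKM at 100 to 200 kb, and the libraries spread more there than elsewhere, with 0.488, 0.459 and 0.441 RPKM in a, b and c. The panH3 signal fell steadily with distance, from 0.468 RPKM in genes to 0.378 RPKM beyond 500 kb. Part of the difference between the marks thus lay in panH3 itself. On the log2 scale, bins 100 kb or more from a gene exceeded bins in genes by 0.59, 0.55 and 0.51 in H3K9me3 a, b and c and fell below them by 0.24 in both panH3 libraries, a difference of 0.79 between the marks. The exact permutation test over libraries (two-sided) gave p = 0.2, the smallest value that 3 against 2 libraries allow. The difference was 0.70 when near and far bins were paired within 1074 domains of 1 Mb, so it was also present at short range.

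Distance to an expressed gene separated the bins more sharply than distance to any gene. Genes with at least 1 RPKM of RNA were taken as expressed and those under 0.1 RPKM as silent, from the single RNA library. Among bins that touch no gene, the 4338 bins within 10 kb of an expressed gene held 0.359 ± 0.007 RPKM of H3K9me3 (SD, n = 3) against 0.5 RPKM of panH3, with 2177 bins lower and 360 higher. At 200 to 500 kb from the nearest expressed gene (12615 bins) the means were 0.526 and 0.396 RPKM, with 3094 bins higher and 447 lower. The contrast of 0.79 became 1.07 (exact permutation p = 0.2) with 47663 bins 100 kb or more from an expressed gene set against 21678 overlapping one. Unlike the bins just described, these far bins include bins inside genes under 1 RPKM, so distance and RNA are mixed in this value.

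Bins inside silent genes followed the same course. Of 205 bins in silent genes that lie within 10 kb of an expressed gene, 112 were lower and 8 higher, at 0.290 ± 0.010 RPKM of H3K9me3 (SD, n = 3) against 0.487 RPKM of panH3. Of 1268 bins in silent genes that lie 200 to 500 kb from an expressed gene, 204 were higher and 59 lower, at 0.478 against 0.412 RPKM. The 0.290 RPKM beside an expressed gene is near the 0.284 RPKM of bins in genes with 1 to 10 RPKM of RNA. At 50 to 100 kb the calls were about even, with 110 of 775 bins higher and 95 lower.

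The position of a bin along its gene was examined next, by the strand of the gene. Around expressed genes H3K9me3 fell stepwise toward the start: 0.516 RPKM at 50 to 100 kb upstream, 0.460 RPKM at 10 to 50 kb, 0.410 RPKM at 5 to 10 kb and 0.314 ± 0.012 RPKM (SD, n = 3) within 5 kb. The panH3 signal moved the other way, from 0.451 to 0.505 RPKM. Inside the gene H3K9me3 was flat, at 0.259, 0.270 and 0.261 RPKM in the first, middle and last stretch of equal length, and it rose again within 5 kb past the end to 0.328 ± 0.005 RPKM. The lowest of these position classes was that of the 723 bins that hold the start of an expressed gene, with 0.139 ± 0.004 RPKM against 0.419 RPKM of panH3 and 608 bins lower against 7 higher.

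Silent genes had a shallower trough, in which H3K9me3 stayed near the panH3 level. Their first, middle and last stretches held 0.430, 0.460 and 0.454 RPKM of H3K9me3 against 0.425 to 0.429 RPKM of panH3. The 403 bins with the start of a silent gene held 0.399 ± 0.009 RPKM (SD, n = 3) against 0.418 RPKM, with 70 lower and 36 higher, and with centred libraries 49 lower and 63 higher, so their direction depends on the scaling. On both flanks silent genes exceeded panH3. Within 5 to 10 kb past the end 197 of 625 bins were higher and 58 lower, at 0.553 against 0.405 RPKM, and within 5 to 10 kb before the start 189 of 685 were higher and 64 lower, at 0.544 against 0.415 RPKM. Within 5 kb before the start the counts were nearly equal, 138 higher and 142 lower of 955, and centred libraries gave 210 and 86.

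**Figure D1:**
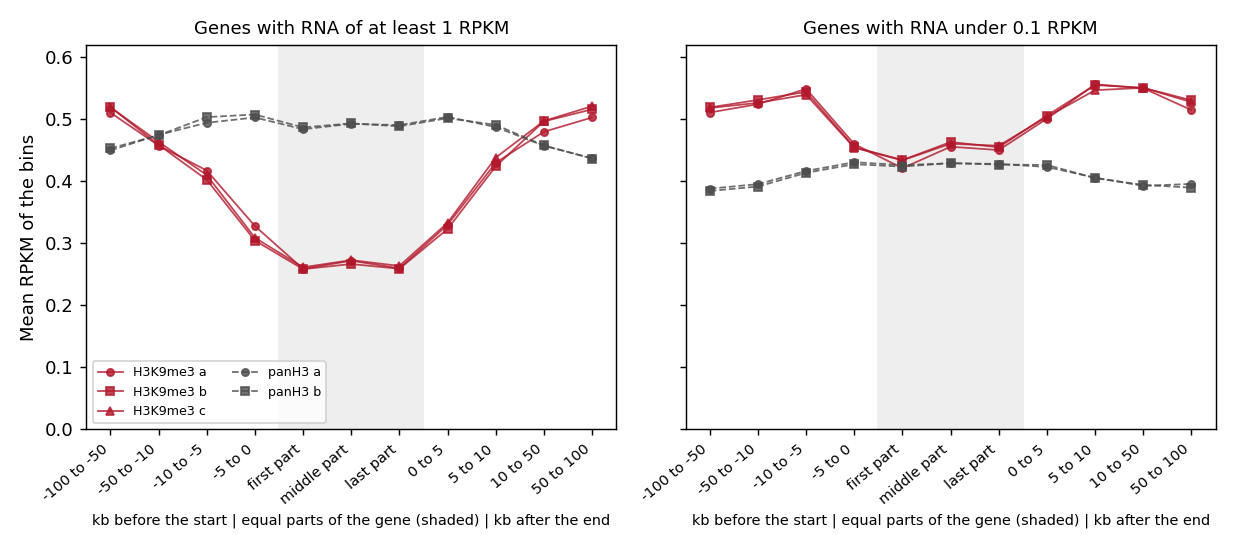
Mean RPKM of bins by position along the nearest gene (by its strand), for expressed genes (RNA of at least 1 RPKM) and silent genes (under 0.1 RPKM), 1 point per library. Expressed genes show a trough of H3K9me3 from 5 kb before the start to 5 kb past the end, down to 0.259 RPKM in the first stretch of the gene, while inside silent genes H3K9me3 averages 0.430 RPKM or more.

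The side of the gene made little difference beside its distance and its RNA. Bins within 10 kb past the end exceeded bins within 10 kb before the start by 0.01, 0.05 and 0.06 log2 units in H3K9me3 a, b and c and by -0.02 in both panH3 libraries, a difference of 0.06 (exact permutation p = 0.2, the smallest possible). It was 0.10 for bins at 10 to 50 kb. For expressed genes alone it was 0.02 (exact permutation p = 0.6), where the libraries of the marks overlap, and for silent genes 0.07 (p = 0.2 in the same exact test). Inside genes of at least 10 kb the last stretch exceeded the first by 0.02 more in H3K9me3 than in panH3 (exact permutation p = 0.2), and by 0.002 in expressed genes (exact permutation p = 0.8).

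H3K9me3 over a gene followed the RNA of that gene. In 1829 bins of genes with RNA listed at 0 the means were 0.468 ± 0.006 RPKM of H3K9me3 (SD, n = 3) and 0.429 RPKM of panH3, with 283 bins higher and 210 lower. In 12477 bins of genes with 1 to 10 RPKM of RNA they were 0.284 ± 0.004 and 0.463 RPKM, with 660 higher and 6869 lower. In 8761 bins of genes with 10 RPKM or more they were 0.225 ± 0.005 and 0.525 RPKM, with 3.73% higher and 75.9% lower. H3K9me3 thus fell and panH3 rose with RNA. Bins of silent genes exceeded those of expressed genes by 0.66, 0.71 and 0.68 log2 units in H3K9me3 a, b and c and fell below them by 0.17 and 0.18 in panH3 a and b, a difference of 0.86 (exact permutation p = 0.2, the smallest possible). Within 452 domains of 1 Mb that hold bins of both classes it was 0.90.

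**Figure D2:**
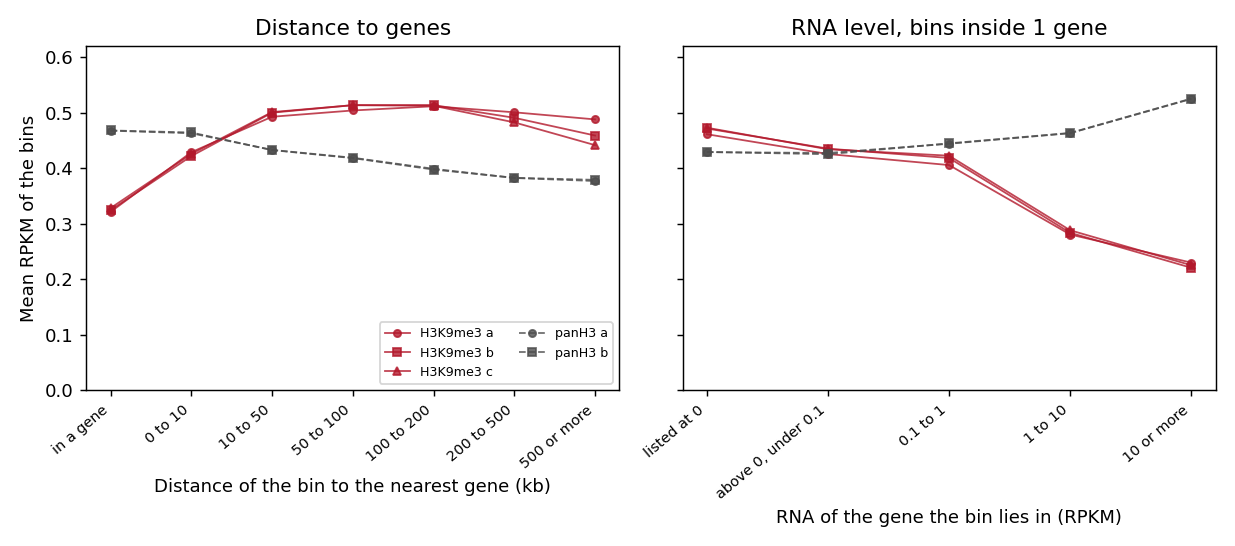
Mean RPKM of bins (y axis), 1 point per library of H3K9me3 (red) and panH3 (grey) at 1000 cells, by distance to the nearest gene in kb (left) and, for bins inside 1 gene, by the RNA of that gene in RPKM (right). H3K9me3 lies below panH3 in bins that overlap a gene (0.324 against 0.468 RPKM) and above it from 10 kb outward, and inside genes it falls from 0.468 RPKM where RNA is listed at 0 to 0.225 RPKM where RNA is 10 RPKM or more.

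Among expressed genes the depth of the trough varied with length. Expressed genes under 10 kb held 0.127 RPKM of H3K9me3 against 0.471 RPKM of panH3, with 525 of 570 bins lower. Those of 10 to 50 kb held 0.166 against 0.521 RPKM, those of 50 to 200 kb 0.224 against 0.503 RPKM, and those over 200 kb 0.374 against 0.451 RPKM, with 2396 of 7269 bins lower and 606 higher. Long expressed genes thus held more H3K9me3 per bin than short ones. Silent genes over 200 kb held 0.432 RPKM against 0.395 RPKM, with 208 of 1634 bins higher and 104 lower.

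Gene by gene, 3950 genes had 3 or more tested bins, and the mean of these bins was tested per gene. H3K9me3 was higher than panH3 over 307 gene bodies (7.77%) and lower over 2592 (65.6%), and centred libraries gave 582 and 2195. Without panH3 library a, 180 were higher, and with the panH3 libraries taken as 1, 192. Of 182 genes with RNA listed at 0, 55 were higher and 34 lower, and of 1108 genes with 10 RPKM or more, 20 were higher and 1038 lower, with a median difference of -1.30 against -0.57 over all genes tested. All gene bodies named for their excess or deficit in the next 3 paragraphs kept their call when libraries were centred.

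The 10 genes with the largest excess of H3K9me3 had little or no RNA. Gsdmc on chromosome 15, a gasdermin of the pore-forming family, held 1.45, 1.29 and 1.48 RPKM in H3K9me3 a, b and c and 0.373 and 0.420 RPKM in panH3. All 3 H3K9me3 values lay above both panH3 values, which was a condition for being ranked here. The log2 difference was 1.30 (SE 0.0955, limma adjusted p = 2.88e-06) over 3 bins. In the H3K9me3 libraries of 1000000, 100000 and 10000 cells, which the test did not use, the same bins held 1.01, 1.23 and 1.48 RPKM. Second was a gene on chromosome 3 that the table lists without a symbol (log2 difference 1.18). Next in rank were Vmn2r97, a pheromone receptor of the vomeronasal organ (log2 difference 1.15), Gm5631 (1.04), Ccdc11, a protein of motile cilia (1.02), and Mup2, a major urinary protein (1.02). Mup2 rested on low values, 0.212, 0.340 and 0.265 RPKM against 0.085 and 0.0675 RPKM. Then came Dhrs2, a short-chain dehydrogenase (0.99), the pseudogene Speer6-ps1 (0.98), Clec4a4, a C-type lectin of immune cells (0.98), and Nlrp4b, of the NLR family (0.97). RNA of these 10 genes lay between 0 and 0.44 RPKM. Vmn2r, Mup and Speer genes have near-identical copies, and how the authors placed reads that match several copies is not given in the sources used here, so values of single copies are uncertain.

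The 10 genes with the largest deficit were, with 1 exception, expressed. Med13, a subunit of the Mediator kinase module on chromosome 11 with 13.8 RPKM of RNA, held 0.0767, 0.0567 and 0.0633 RPKM of H3K9me3 and 0.813 and 0.800 RPKM of panH3, a log2 difference of -2.46 (SE 0.105, limma adjusted p = 1.5e-06). The H3K9me3 density was thus close to 0 over a gene where panH3 was high. In the libraries of 1000000, 100000 and 10000 cells the same bins held 0.300, 0.213 and 0.123 RPKM. Suz12, a core subunit of the Polycomb repressive complex PRC2, with 64.8 RPKM of RNA, held 0.103, 0.0633 and 0.0867 RPKM against 0.863 and 0.860 RPKM (log2 difference -2.39). The others were Snf8 of the ESCRT-II complex (-2.41), the RNA-binding protein Rbm26 (-2.40), Cfdp1 (-2.39), the Hsp70-family chaperone Hspa4 (-2.37), the importin Ipo7 (-2.36), the poly(A) polymerase Papd5 (-2.35), Ccdc55 (-2.35) and the centrosomal protein Pcm1 (-2.33). Most of the 10 lie on chromosomes 8 and 11, where panH3 averaged 0.604 and 0.637 RPKM over domains. With 0.1 RPKM added to H3K9me3 values this low, the rank also depends on the panH3 level and is not a rank of ratios. RNA was 11.2 to 92.9 RPKM in 9 of the 10. The exception was Ccdc55, with RNA listed at 0.03 RPKM and 0.0867, 0.0767 and 0.0867 RPKM of H3K9me3 against 0.807 and 0.833 RPKM of panH3.

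The 20 genes that were both expressed at 10 RPKM or more and higher in H3K9me3 are the exceptions to the relation with RNA. The largest differences were those of 2410018L13Rik on chromosome 12, with 0.465, 0.487 and 0.512 RPKM against 0.195 and 0.207 RPKM (log2 difference 0.90) and 19.7 RPKM of RNA, and of the zinc finger gene Zfp934 on chromosome 13 (0.82), with 20.6 RPKM of RNA. Kcnq1, a potassium channel gene in an imprinted region of chromosome 7, had 129 RPKM of RNA and a log2 difference of 0.48, with 5 of 10 bins higher and 2 lower. The antisense RNA Kcnq1ot1 lies inside it, and without the strand of the RNA reads the 2 genes cannot be told apart. Gm13152 on chromosome 4 had the highest RNA, 325 RPKM, and a difference of 0.42, at 1.40, 1.54 and 1.55 RPKM against 1.23 and 1.28 RPKM. A group of 8 protocadherin loci on chromosome 18 shares bins and so counts as 1 observation: the widest, Pcdha4-g, held 0.696, 0.627 and 0.588 RPKM over 44 bins against 0.377 and 0.399 RPKM (log2 difference 0.45). The other 8 were Cep57l1 (0.53), Mtmr2 (0.52), Amph (0.50), A830018L16Rik (0.36), Mpp7 (0.35), Kcnip1 (0.30), Fhit (0.25) and Stau2 (0.21).

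Single bins with the largest differences are given by distance class. Inside genes the highest was in 0610010B08Rik (mm9, chr2:174980001-174982000), with 3.02, 2.16 and 2.08 RPKM against 0.29 and 0.5 RPKM, and the lowest was in the zinc finger gene Zfp142 (chr1:74624001-74626000), with 0.03, 0.03 and 0.04 RPKM against 0.90 and 0.94 RPKM. Within 10 kb of a gene the highest bin lay 8.61 kb upstream of Peg12, a paternally expressed imprinted gene, with 2.68, 2 and 2.58 RPKM against 0.48 and 0.36 RPKM. That bin also held 1.86, 1.90 and 1.57 RPKM in the H3K27me3 libraries of 100000, 10000 and 1000 cells. At 100 to 200 kb it lay 142 kb downstream of Oprk1, an opioid receptor gene (2.31, 1.90 and 2.06 RPKM against 0.37 and 0.31 RPKM), and beyond 500 kb 721 kb upstream of Epha6, an ephrin receptor gene (1.37, 1.23 and 1.57 RPKM against 0.06 and 0.30 RPKM). Low bins were also found away from genes. The lowest at 200 to 500 kb was 221 kb upstream of the transcription factor gene Klf3, with 0.09, 0.09 and 0.06 RPKM against 0.62 and 0.63 RPKM.

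A list was made of genes that write, read or remove H3K9 methylation, with other genes linked to heterochromatin. The listed genes are nearly all expressed in these cells, and most of their bins were low in the mark. Of 32 listed genes 31 were in the table, 30 of them with RNA of at least 1 RPKM (median 18.1 RPKM, highest 123 RPKM for the HP1 gene Cbx1). Of their 64 tested bins 56 were lower and 1 higher, against 24.7% and 15.2% of all bins. Of bins in genes with at least 1 RPKM of RNA 63.7% were lower, and of those with 10 RPKM or more 75.9%, so a high share is common to expressed genes. The methyltransferase gene Setdb1 held 0.085, 0.095 and 0.09 RPKM of H3K9me3 against 0.545 and 0.445 RPKM of panH3. Suv39h2, of the other writer family, held 0.11, 0.07 and 0.11 RPKM against 0.31 and 0.33 RPKM in 1 bin. The HP1 genes Cbx1, Cbx3 and Cbx5, whose products read the mark, held 0.115, 0.0533 and 0.08 RPKM of H3K9me3 on average against 0.863, 0.575 and 0.440 RPKM. Of 9 gene bodies tested 8 were lower, beside 65.6% of all gene bodies and 85.1% of those with RNA of at least 1 RPKM: the lamin gene Lmnb1 (log2 difference -2.04), the DNA methyltransferase gene Dnmt1 (-1.63), the H3K9 methyltransferase gene Ehmt1 (-1.57), the demethylase genes Kdm4c (-1.54) and Kdm4b (-1.09), the remodeller genes Smarcad1 (-1.35) and Atrx (-0.98), and Pphln1 of the HUSH complex (-1.06). Atf7ip, a partner of SETDB1, differed by -0.14 (limma adjusted p = 0.259), with 1 bin higher and 2 lower. The demethylase gene Kdm4d, with 0.62 RPKM the least expressed, held 0.43, 0.53 and 0.44 RPKM against 0.46 and 0.62 RPKM in its only bin, which was not called.

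The same comparison was then made over 2573 domains of 1 Mb with at least 10 tested bins. H3K9me3 was higher in 630 domains (24.5%) and lower in 1219 (47.4%), and in centred libraries in 1189 and 853, so again the direction with more domains depends on the scaling. The differences ran from -1.65 to 1.18 on the log2 scale. Higher domains held 0.538, 0.529 and 0.522 RPKM in H3K9me3 a, b and c against 0.379 and 0.378 RPKM in panH3, and lower domains 0.350, 0.354 and 0.359 RPKM against 0.477 RPKM in both panH3 libraries. All 3 H3K9me3 values lay above both panH3 values in 628 of the higher domains and below them in 1218 of the lower ones.

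Domain calls followed the number of expressed genes. Of 593 domains with no expressed gene 327 were higher and 29 lower, and of 297 domains with 11 or more expressed genes 2 were higher and 287 lower. In between, domains with 3 to 5 expressed genes gave 73 higher and 347 lower of 605, and 216 and 204 with centred libraries. Gene-rich domains split by activity: of 78 domains with 11 or more genes but at most 2 expressed, 49 were higher and 6 lower, at 0.489 ± 0.009 RPKM of H3K9me3 (SD, n = 3) against 0.353 RPKM of panH3, while of 667 domains with as many genes and 3 or more expressed, 34 were higher and 574 lower, at 0.348 ± 0.005 against 0.486 RPKM. Across the 2573 domains, which share the 5 libraries, Spearman's rho with the domain difference was -0.756 for the number of expressed genes and -0.600 for the share of bins in genes, given as descriptions.

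**Figure D3:**
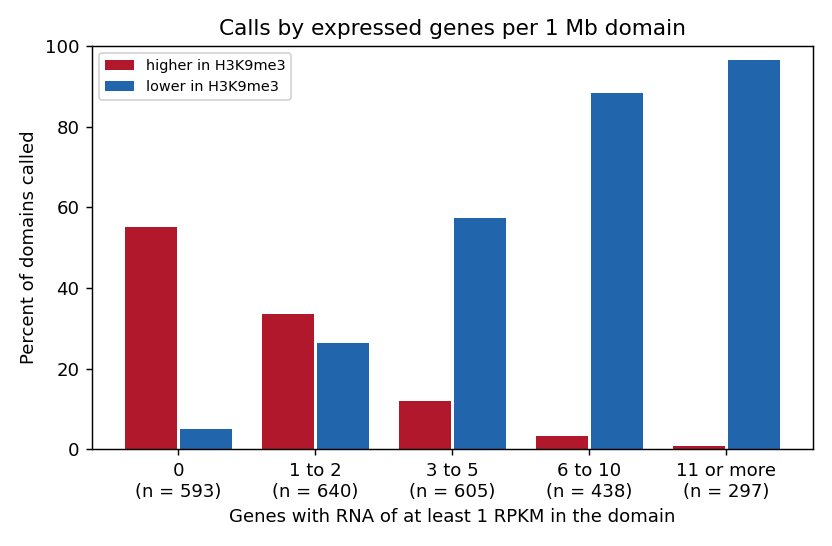
Share of 1 Mb domains called higher or lower in H3K9me3 than in panH3 (limma, adjusted p under 0.05), in percent, by the number of expressed genes (RNA of at least 1 RPKM) in the domain. The lower share rises with the number of expressed genes to 96.6% at 11 or more, and the higher share falls from 55.1% to 0.673%.

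To separate genes from their surroundings, domains were also called on bins that touch no gene, and the gene bins of these domains, which that call had not used, were then examined. In 921 domains called higher in this way, bins of expressed genes averaged -0.64 on the log2 scale, with 50.4% of 4443 bins lower and 6.95% higher, and bins of silent genes averaged 0.10, with 17.5% of 2072 bins higher and 6.90% lower. In 499 domains called lower, bins of expressed genes averaged -1.16, with 77.0% of 6453 bins lower, and bins of silent genes averaged -0.22, with 21.5% of 939 bins lower and 10.2% higher. In 885 domains called neither way the averages were -0.87 for expressed and -0.06 for silent genes. Both kinds of gene bin thus moved with their surroundings, and in each kind of domain the bins of expressed genes averaged below those of silent genes.

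**Figure D4:**
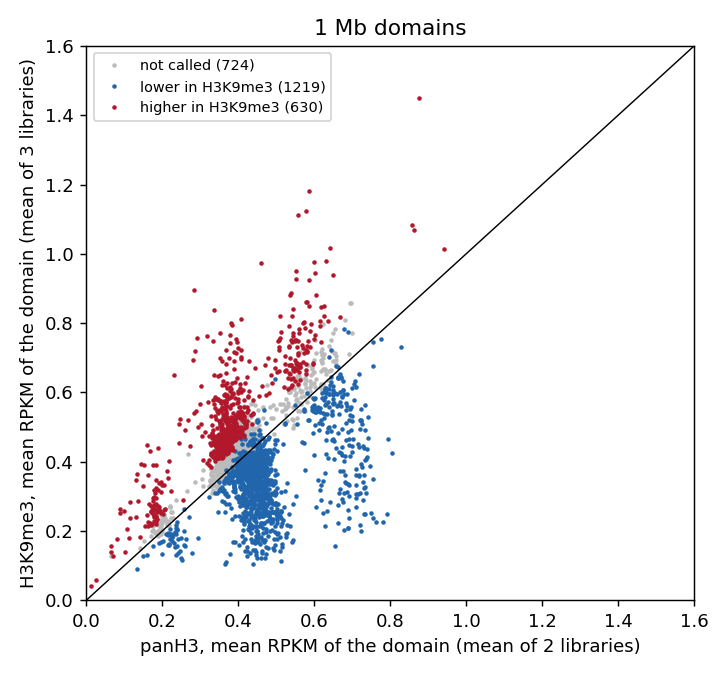
Mean RPKM of H3K9me3 against mean RPKM of panH3 for each 1 Mb domain at 1000 cells, coloured by call. The points form bands along the panH3 axis that belong to chromosome X, to most autosomes, and to chromosomes 1, 8 and 11, where panH3 averaged 0.611, 0.604 and 0.637 RPKM.

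Chromosomes differed in the density of both marks. On chromosomes 1, 8 and 11 panH3 averaged 0.611, 0.604 and 0.637 RPKM and H3K9me3 0.626, 0.586 and 0.518 RPKM, against 0.382 to 0.458 RPKM of panH3 on the other autosomes. The density of H3K9me3 was thus also raised there. Without these chromosomes 515 of 2136 domains were higher and 1005 lower, the distance contrast was 0.76 and the RNA contrast 0.83. Chromosome X, single in these male cells, held 0.235, 0.236 and 0.229 RPKM of H3K9me3 against 0.195 and 0.198 RPKM of panH3, with 70 of 164 domains higher and 43 lower. All 3 tested domains of chromosome Y were higher. At the other end chromosome 11 had 22 higher and 76 lower domains of 119, and a median of 6 expressed genes a domain against 3 over all domains.

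Domains of 1 kind tended to lie together. Of the neighbours of higher domains 40.2% were higher, and of the neighbours of lower domains 61.6% were lower, against 24.5% and 47.4% of all domains. The longest runs of higher domains covered 7 Mb of chromosome 1 (100 to 107 Mb, mm9), with 4 genes of which 1 was expressed and 0.709 ± 0.015 RPKM of H3K9me3 (SD, n = 3) against 0.541 RPKM of panH3, and 7 Mb of chromosome X (21 to 28 Mb), with 70 genes of which 2 were expressed and 0.237 against 0.127 RPKM. The longest run of lower domains covered 18 Mb of chromosome 9 (50 to 68 Mb), with 220 genes of which 133 were expressed and 0.289 ± 0.008 RPKM against 0.441 RPKM. The next covered 14 Mb of chromosome 4 (128 to 142 Mb), with 164 of 269 genes expressed and 0.221 against 0.446 RPKM.

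The domain with the largest excess was chr12:22000001-23000000 (mm9). The expressed gene 2410018L13Rik, described above, begins near its end, extends into the next domain and overlaps 1 of its 21 bins. This domain held 0.931, 0.879 and 0.874 RPKM of H3K9me3 against 0.284 and 0.285 RPKM of panH3. The log2 difference was 1.18 (limma adjusted p = 4.65e-10), and 16 of the 21 bins were higher. In the libraries of 1000000, 100000 and 10000 cells it held 0.680, 0.812 and 0.905 RPKM. Of the 8 highest domains 3 lie at 18 to 23 Mb of chromosome 12 and 3 at 15 to 34 Mb of chromosome 7. Domain chr12:19000001-20000000 (1.03) and domain chr7:33000001-34000000 (1.02) hold no gene of the table. Domain chr12:18000001-19000000 (0.94) overlaps only 5730507C01Rik, which is also expressed but touches no tested bin of the domain. Domain chr7:32000001-33000000 (0.97) holds Abpe, whose promoter is printed above, and Apbh. Domain chr7:15000001-16000000 (0.93) holds 5 genes, among them the oocyte homeobox gene Obox2. Its 1 expressed gene is the pheromone receptor gene Vmn1r90, with 4.2 RPKM of RNA. The remaining 2 are chr3:3000001-4000000 (0.99), with Hnf4g, a nuclear receptor gene with RNA listed at 0, and chrX:52000001-53000000 (0.92), with Gm14625, Gm16404 and Slxl1. The panH3 densities of these 8 domains were 0.144 to 0.337 RPKM, below the 0.433 RPKM of all domains. The lowest was that of the chromosome X domain, and panH3 averaged 0.197 RPKM over the domains of that chromosome. Ranking by the difference from panH3 itself favours domains of low panH3, so this is not a separate result.

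The domain with the largest deficit on the log2 scale was chr11:97000001-98000000. It holds 27 genes of which 25 were expressed, among them Plxdc1, Socs7 and Srcin1. It held 0.153, 0.144 and 0.171 RPKM of H3K9me3 against 0.664 and 0.643 RPKM of panH3, a log2 difference of -1.65, and 35 of its 36 bins were lower. Next were the Trim37, Cltc and Med13 domain at 86 Mb of chromosome 11 (-1.61), in which Cltc encodes the clathrin heavy chain, and the Nusap1, Ino80 and Mga domain at 119 Mb of chromosome 2 (-1.60). The Nusap1 domain held 0.129, 0.0944 and 0.120 RPKM against 0.513 and 0.511 RPKM. The other 5 were those of Gpatch8 (102 Mb, -1.59), Grb2 (115 Mb, -1.58) and Tex2 (106 Mb, -1.54) on chromosome 11, and of Smpd3 (108 Mb, -1.56) and Nfat5 (109 Mb, -1.52) on chromosome 8. The last also holds Cdh1, the gene of E-cadherin, which embryonic stem cells use for adhesion, with 31.7 RPKM of RNA. Of these 8 domains 7 lie on chromosomes 8 and 11, where the panH3 density is raised. The added 0.1 RPKM shrinks the difference more where densities are low, so this rank is not a rank of ratios. The ratio of mean panH3 to mean H3K9me3 was 4.48 in the Nusap1 domain of chromosome 2 and 4.19 in the first-ranked domain.

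**Figure D5:**
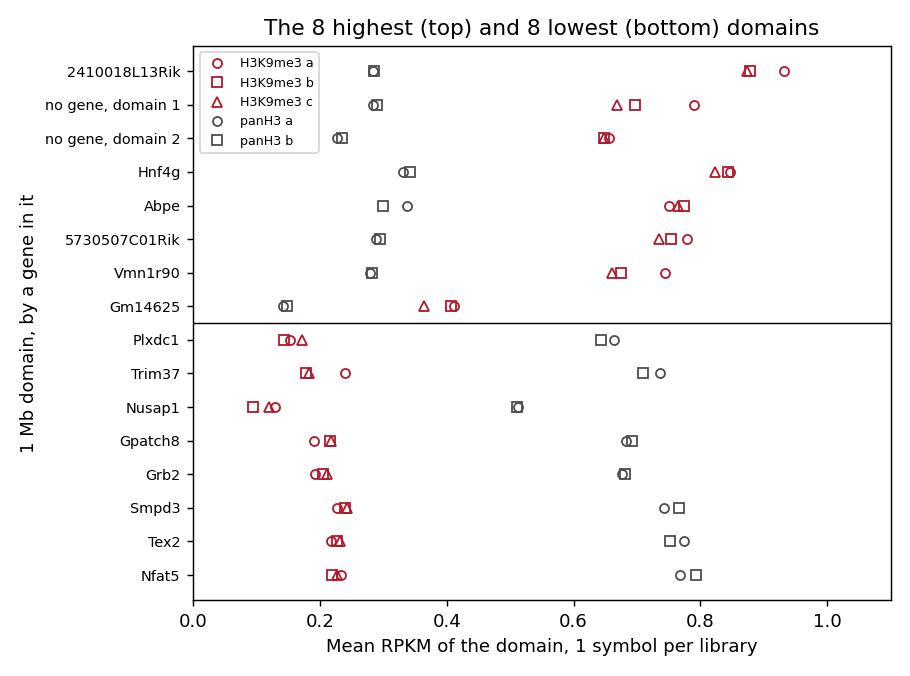
Mean RPKM per library of the 8 domains with the largest excess and the 8 with the largest deficit of H3K9me3 over panH3, 1 point per library. The 16 were picked only among called domains whose 3 H3K9me3 libraries lie on 1 side of both panH3 libraries. On the log2 scale the largest excess is 0.895 against 0.285 RPKM and the largest deficit 0.156 against 0.653 RPKM.

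Clustered gene families were followed through the domains that hold at least 3 of their members, beside 24.5% higher and 47.4% lower over all domains, and differences between families were not tested. Of 17 such domains of the vomeronasal receptor family Vmn2r, whose 129 loci include 2 expressed ones, 12 were higher and none lower, and of 19 domains of the related family Vmn1r 11 were higher and 6 lower. Both Mup domains were higher. Not every family counted is given, and several others with few expressed loci had no surplus of higher over lower domains. Of 13 Cyp domains 5 were higher and 7 lower, of 7 Krt domains 1 and 3, and of 6 Defb domains 3 and 3. Centred libraries gave 6 and 6 for Cyp, 4 and 3 for Krt, and 3 and 3 for Defb. For the olfactory receptor genes, of which 1 of 1123 was expressed, 20 of 63 domains were higher and 24 lower, and centring turned this to 33 and 20, so no direction can be given. Of 35 domains with 3 or more Zfp genes 7 were higher and 22 lower, and 296 of the 367 Zfp loci were expressed. Of 4 Hox domains none was higher and 3 were lower (1 and 3 when centred), but none of the 5 bins in Hox genes themselves was called, and none of the 40 Hox loci reached 1 RPKM. Both domains of the X-linked Rhox homeobox cluster were lower, while of 13 bins in Rhox genes 1 was higher and none lower. A domain also holds genes of other families, so its call is not that of the family's own bins. Hox clusters are known to be kept silent in embryonic stem cells by Polycomb and its mark H3K27me3.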

How the data were processed

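The authors deposited RPKM values per 2 kb bin for each library, per the file headers. The panH3 columns carry no unit there and were taken as RPKM, since their values have the same mean and steps. BWA, SAMtools and mm9 are named, per the submitters' processing notes; versions, the counting tool and the treatment of duplicates and of multiply matching reads are not given in the sources at hand. RNA RPKM of 1 library at 1000 cells (highest transcript of a gene) and gene positions came from the gene table the authors deposited (28373 transcripts, 22773 loci); its starts count from 0 and were converted. Of 27600 RefSeq IDs 26942 were in the reference names table, and symbols are those of the deposited table. No bin exceeds 4.57 RPKM in the 5 libraries, so the strongest bins may be missing from the table.

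Bins, 1 Mb domains (mean of at least 10 tested bins) and gene bodies (mean of at least 3) were tested with limma 3.58.1 in R 4.3.3 on log2(RPKM + 0.1), with trend and robust moderation, two-sided, Benjamini-Hochberg threshold 0.05 over all features of the kind. Contrasts between classes of bins used 1 value per library and an exact permutation test. The fits were also run on simulated data with an assumed dispersion of 0.02 and 200 changed features of each kind. More bins, domains and gene bodies than that were called in the real data. The Benjamini-Hochberg cut was thus stricter in the simulation, and its shares may understate recovery in the main fits. Of bin changes of 1 and 2 log2 units 10% and 92% were recovered. Of domain changes of 0.1 and 0.2 log2 units 3% and 56% were recovered, and of gene body changes of 0.5 and 1 33% and 98%. A read was worth 0.0119 to 0.0285 RPKM. Distances run from bin edge to gene edge. Named domains are the 8 highest and 8 lowest called and named gene bodies the 10 highest and 10 lowest called, all with H3K9me3 libraries on 1 side of both panH3 libraries, with up to 3 genes a domain, and the highest and lowest called bin of each distance class, of which some are reported. The 20 expressed genes called higher were chosen after their values were seen. Members, lists and tests were chosen with earlier results of these data known. Of the listed genes, Fam208a and the marker Tfcp2l1 had no match in the gene table. Both marks use the letters a and b, but their a minus b deviations correlated at -0.00955 over bins, so libraries were not paired. Further tools were scipy 1.17.1, pandas 2.3.3 and numpy 2.4.6 under Python 3.11.15, with matplotlib 3.10.9.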

Additional observations from a re-analysis of the deposited data

How the results depend on the processing

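The distance, RNA, strand side and gene end contrasts kept their direction under all alternatives run. Leaving out 1 library gave 9725 to 16463 bins higher and 15486 to 25877 lower, 464 to 711 domains higher and 1086 to 1294 lower, and 180 to 398 gene bodies higher and 2287 to 2642 lower. Counts moved by over 1.5 times in the settings listed next, and for gene bodies higher without panH3 library a. The panH3 libraries as 1 library, a setting chosen after seeing the data, gave 9427 bins higher and 15095 lower and 192 gene bodies higher. Centring gave 1189 domains and 582 gene bodies higher. Domains of 0.5 Mb gave 1301 higher and 2194 lower of 5034, and domains of 2 Mb 285 and 673 of 1304, since the number of domains changes. The median of bins gave 368 domains higher, gene bins alone 87 higher, and bins touching no gene 499 lower. At least 5 bins a gene gave 202 gene bodies higher and 1185 lower of 2002 tested. In the replicate block and with recovered reads, given next, counts stayed within 1.5 times of the main ones. The replicate block on the letters a and b, which share only a letter, gave 13498 bins higher and 22529 lower, 631 domains higher and 1212 lower, and 279 gene bodies higher and 2601 lower. Reads recovered from the RPKM steps (100% of low values whole in the 5 libraries after rounding, to 2 decimals) gave 17883 bins higher and 24647 lower with limma's voom. The cause of the moves under centring and under the median was not tested. With 3 against 2 libraries the exact test cannot go below 0.2, and without an H3K9me3 library not below 0.333. A bin rests on 13 to 36 reads, so a bin that is not called may still differ.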
